A study of Mus musculus with 18 samples.

Results

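Fatty acid oxidation was followed through 10 genes in the mouse hypothalamus, where hunger and energy expenditure are regulated. The genes were fixed by symbol, with earlier results of these data known. They are Cpt1a, Cpt1c, Cpt2, Acadm, Acadl, Hadha, Hadhb, Etfa, Etfdh and Pdk4, 10 of the 56980 features in the deposited table, each with 1 feature. Of these, 9 had enough counts to be tested together with the other genes, 11835 in all. Pdk4 did not, with 116 counts over 18 libraries, and its values are described and tested only without a filter on low counts.

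All mice were male wild-type C57BL/6JGpt, and 3 groups of 6 were compared. Mice with diet-induced obesity (DIO) were put on high-fat food at an age of 6 weeks and stayed on it for 16 weeks or more. After 14 days of getting used to gavage with the vehicle, they received either TN-783, which inhibits NLRP3, the sensor of an inflammasome, at 50 mg/kg or the vehicle alone, by mouth 2 times a day for 29 days. The deposited sample table gives 28 days of dosing and an age of 7 months. Lean controls ate chow and were not dosed, so diet and dosing differ together wherever a DIO group is set against lean mice. Each of the 18 libraries is from a separate animal according to the labels, so the spread between libraries includes that between animals.

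Long-chain fatty acids enter mitochondria as carnitine esters: carnitine palmitoyltransferase 1 loads the acyl group onto carnitine at the outer membrane, and carnitine palmitoyltransferase 2 moves it back to coenzyme A inside. Each round of beta-oxidation then begins with an acyl-CoA dehydrogenase, whose electrons pass through the electron transfer flavoprotein and its dehydrogenase to ubiquinone, and for long chains continues on the trifunctional protein. In the brain, astrocytes carry out much of this oxidation, and in the hypothalamus the malonyl-CoA that inhibits carnitine palmitoyltransferase 1 is known as a fuel signal in the control of feeding.

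Lean libraries held 2069960 to 3695646 counts in total, vehicle libraries 1699650 to 2761378 and TN-783 libraries 1993457 to 3589654. RNA integrity numbers were 9.4 to 9.7 in lean replicates 1 to 5 and 10 in lean replicate 6. They were 9.5 to 9.9 in vehicle and 9.6 to 9.7 in TN-783 libraries. Levels are CPM, counts scaled to a library size of 1000000, from each library's total after trimmed-mean (TMM) scaling. Because the libraries hold 3' tags, levels are compared between groups for a gene and not between genes. Hypothalamic neuropeptide markers summed to 337 to 723 CPM and 0 of the 10 on that list were absent from any group. The median of this sum was 591 CPM for the lean group, against 480 for vehicle and 485 for TN-783, with ranges that overlapped. Lean replicate 6 stood apart from the other lean libraries on the first principal component (30.8 against -31.7 to -13.6) and had the highest RNA integrity number (10). At the same end of this component lay vehicle replicates 3 and 6 (23.3 and 32.6) and TN-783 replicates 1 and 4 (25.3 each). Vehicle replicates 2 and 4 held pituitary transcripts, with prolactin (Prl) at 1773 and 1273 CPM against at most 30.2 CPM in the other libraries.

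The start of 4 genes is shown first, because the text returns to them as partners or by a shared motif. The RefSeq table used has all 10 promoters, each with 250 bases before the start of the gene and 50 after it, on GRCm38.p6, which is not the GRCm39 build that the submitters' processing notes name. Hadha and Hadhb encode the alpha and beta subunits of the trifunctional protein and start head to head on chromosome 5, so that 228 of the 300 bases of their windows are the same DNA (chr5:30155003-30155230). The Hadhb window is chr5:30155003-30155302 on the plus strand, with the bases shared with the Hadha window in capitals.
Hadhb: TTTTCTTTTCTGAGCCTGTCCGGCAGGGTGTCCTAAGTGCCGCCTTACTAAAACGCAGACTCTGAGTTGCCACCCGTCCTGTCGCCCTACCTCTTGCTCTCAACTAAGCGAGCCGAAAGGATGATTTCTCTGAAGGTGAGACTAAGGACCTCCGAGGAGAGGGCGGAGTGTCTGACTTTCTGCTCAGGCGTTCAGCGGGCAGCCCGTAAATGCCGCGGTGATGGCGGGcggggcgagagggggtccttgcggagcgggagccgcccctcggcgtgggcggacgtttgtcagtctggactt
The Etfdh (chr3:79628718-79629017), Acadm (chr3:153944594-153944893) and Etfa (chr9:55512194-55512493) windows are on the minus strand and are shown for a short match they have in common. Capitals mark GCATGCGC, the core of the palindromic sequence bound by nuclear respiratory factor NRF1, and AGGTCA, the half-site of many nuclear receptors, each searched on both strands.
Etfdh: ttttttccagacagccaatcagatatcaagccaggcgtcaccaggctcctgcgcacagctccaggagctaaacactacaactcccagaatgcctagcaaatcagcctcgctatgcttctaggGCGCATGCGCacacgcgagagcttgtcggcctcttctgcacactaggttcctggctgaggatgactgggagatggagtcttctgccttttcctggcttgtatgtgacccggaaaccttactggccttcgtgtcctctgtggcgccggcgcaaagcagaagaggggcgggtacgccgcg
Acadm: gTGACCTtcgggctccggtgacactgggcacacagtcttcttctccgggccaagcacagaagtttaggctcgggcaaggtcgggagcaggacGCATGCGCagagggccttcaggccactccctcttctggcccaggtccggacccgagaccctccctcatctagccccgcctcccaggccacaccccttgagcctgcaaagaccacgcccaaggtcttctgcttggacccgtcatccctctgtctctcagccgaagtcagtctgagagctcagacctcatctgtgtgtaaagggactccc
Etfa: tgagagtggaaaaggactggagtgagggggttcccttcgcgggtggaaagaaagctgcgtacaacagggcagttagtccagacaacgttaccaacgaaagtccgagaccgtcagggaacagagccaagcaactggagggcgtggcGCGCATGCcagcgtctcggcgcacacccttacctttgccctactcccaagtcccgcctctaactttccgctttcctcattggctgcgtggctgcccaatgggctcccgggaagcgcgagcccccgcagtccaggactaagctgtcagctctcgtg

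GCATGCGC, a motif chosen after the sequences were seen, was in the windows of Etfdh, Acadm and Etfa, 3 of 10 genes, against 891 of 32851 promoters in the table (2.71%). It lay 158 bases before the start of Acadm and 105 bases before the start of Etfa. In Etfdh, overlapping matches on both strands lay 128 and 126 bases before the start. AGGTCA was in the windows of Acadm, Cpt1a and Cpt1c, 3 of 10, against 16.3% of all promoters. A repeat of AGGTCA in the same direction with 1 base between, the element of peroxisome proliferator-activated receptors, was in 0 of the 10 windows and in 13 of all promoters (0.0396%). These are matches of letters in short windows and say nothing about binding.

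**Figure D1:**
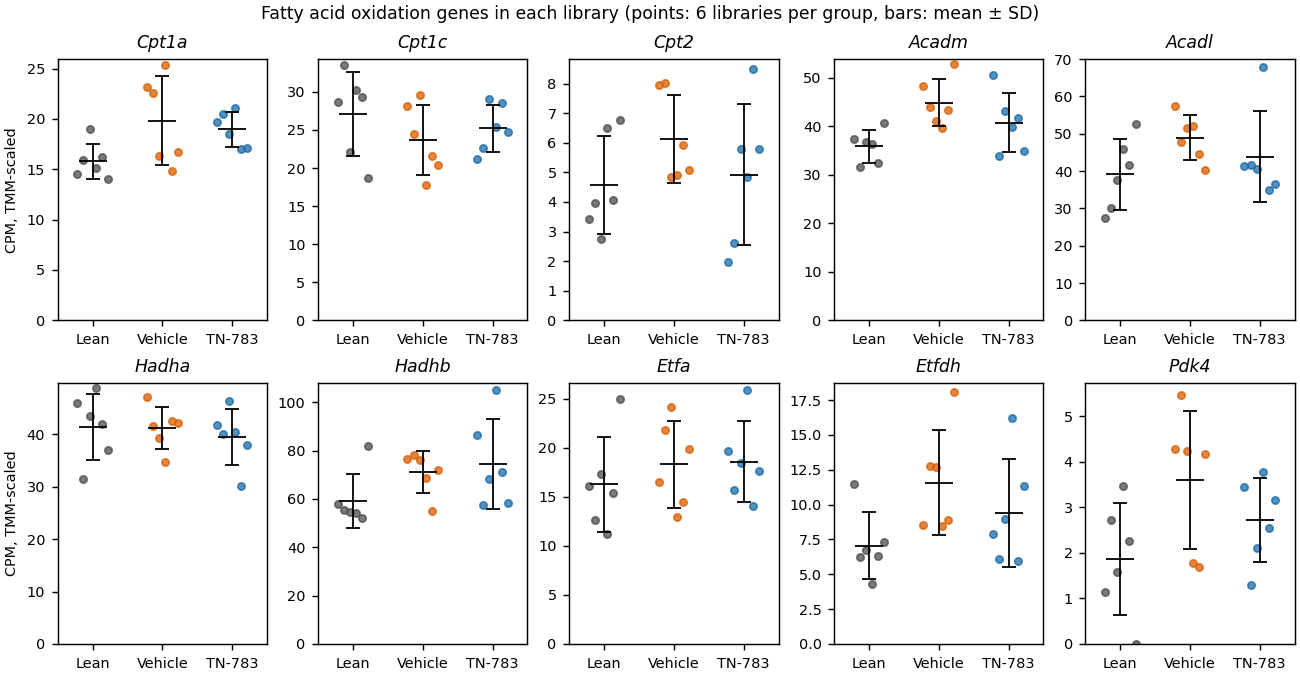
Levels of the 10 genes in every library. Each panel is 1 gene, with CPM after TMM scaling on the vertical axis from 0 and the lean, vehicle and TN-783 groups on the horizontal axis. Points are libraries in the order of their replicate numbers and bars are the mean ± SD of 6. The groups overlap in every panel, the Acadl level of TN-783 replicate 4 (68.0 CPM) and the Hadhb level of lean replicate 6 (81.7 CPM) stand above the rest of their groups, and Pdk4 is at or below 5.46 CPM throughout.

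Set against lean mice, vehicle-treated DIO mice had higher mean levels of most of these genes, but 0 of the 9 tested genes passed an adjusted p of 0.05 (edgeR quasi-likelihood test, Benjamini-Hochberg adjustment over all 11835 genes). In that comparison 0.00845% of all tested genes passed, which is 1 gene, the kinase gene Sgk1. The log2 difference was above 0 for 7 of the 9, as it was for 51.1% of all genes, and the median was 0.33 against 0.01 over all genes. At an unadjusted p under 0.05 there were 4 (Acadm, Etfdh, Cpt1a and Acadl), all higher in vehicle mice, where 10.9% of all genes reached that level and 5.32% did so as higher. That count was 2 without lean replicate 1 or 2, without vehicle replicate 1, 2 or 4, and without vehicle replicates 2 and 4 together, and it ran from 2 to 5 over all alternatives. For 0 of the 10 genes did the vehicle and lean libraries separate without overlap, against 0.397% of tested genes.

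TN-783 against vehicle gave 0 of 9 genes at the adjusted threshold (edgeR; 0% of all tested genes) and 0 at an unadjusted p under 0.05 (2.61% of all genes). The log2 difference was above 0 for 3 of 9, against 48.7% of all genes, and the median was -0.08, against -0.00 over all genes. The groups overlapped for all 10 genes, and 0.0676% of tested genes did not overlap. TN-783 against lean gave 0 of 9 at the adjusted threshold (0% of all genes) and 1 at the unadjusted level, Hadhb (8.16% of all genes, 3.81% as higher), with 7 of 9 above 0 (49.1% of all genes) and a median of 0.18. Here too the groups overlapped for all 10 genes (0.406% of tested genes did not). The comparisons share groups: vehicle enters the first 2, lean enters the first and the third, and TN-783 the second and the third. The values below are therefore set side by side without being counted as separate evidence.

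**Figure D2:**
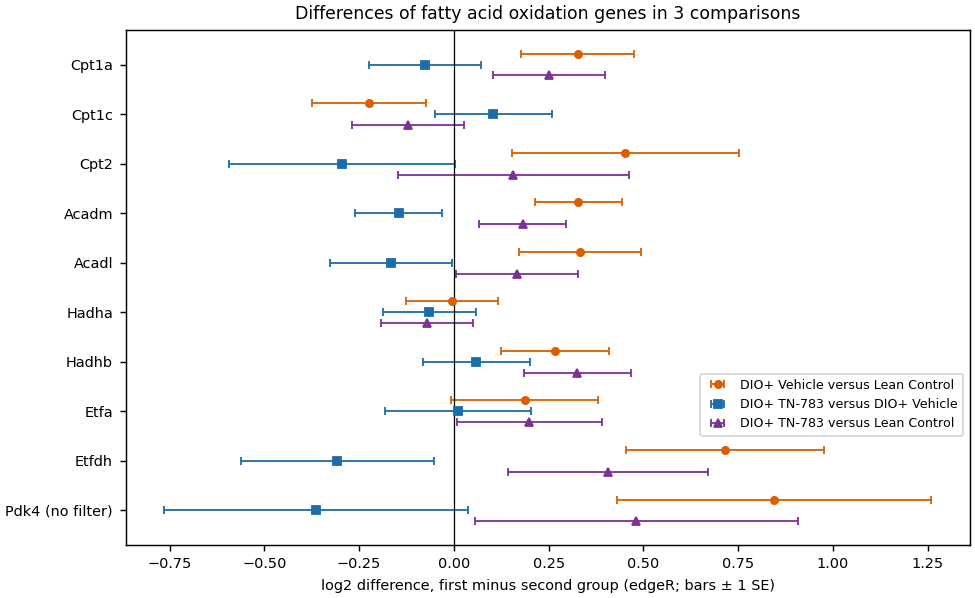
Log2 differences of the 10 genes in the 3 comparisons. The horizontal axis is the edgeR log2 difference of the first group minus the second, with bars of 1 SE, and Pdk4 is from the fit without a filter on low counts. Vehicle minus lean runs from -0.22 for Cpt1c to 0.84 for Pdk4, and TN-783 minus vehicle from -0.36 for Pdk4 to 0.10 for Cpt1c.

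The 3 carnitine genes differed in the sign of their differences, none of which passed the test. Cpt1a, the carnitine palmitoyltransferase of liver that astrocytes also use, ranged from 14.1 to 18.9 CPM in lean mice (median 15.5), from 14.9 to 25.4 in vehicle mice (median 19.6) and from 17.0 to 21.0 in TN-783 mice (median 19.1). The vehicle libraries fell into a lower trio inside the lean range (replicates 3, 5 and 6, 14.9 to 16.7) and a higher trio above it (replicates 1, 2 and 4, 22.6 to 25.4), and the latter includes both libraries with pituitary transcripts. Vehicle minus lean was 0.33 (SE 0.148, edgeR adjusted p = 0.439), and TN-783 minus vehicle was -0.08 (SE 0.147, adjusted p = 1.00). Without vehicle replicates 2 and 4 these values were 0.15 (SE 0.160, edgeR adjusted p = 0.760) and 0.10. TN-783 minus lean was 0.25 (SE 0.148, adjusted p = 0.632), with the TN-783 levels closer together (SD 1.71) than those of vehicle mice (SD 4.40).

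Cpt1c, the form found mainly in neurons, which sits in the endoplasmic reticulum and has little transferase activity, had differences of the opposite sign. It ranged from 18.7 to 33.5 CPM in lean mice (median 29.0), from 17.8 to 29.6 in vehicle mice (median 23.0) and from 21.2 to 29.0 in TN-783 mice (median 25.0). Lean replicate 6 was the lowest lean library and vehicle replicate 4 the lowest of all. The differences were -0.22 for vehicle minus lean (SE 0.150, edgeR adjusted p = 0.574), 0.10 for TN-783 minus vehicle (SE 0.153, adjusted p = 1.00) and -0.12 for TN-783 minus lean (SE 0.148, adjusted p = 0.802). It was the only tested member with a difference of more than 0.05 below 0 between vehicle and lean mice.

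Cpt2, the inner-membrane enzyme, had 4 to 22 counts per library and the widest error of the carnitine genes. Its levels were 2.76 to 6.77 CPM in lean mice (median 4.02), 4.84 to 8.01 in vehicle mice (median 5.52) and 1.97 to 8.50 in TN-783 mice (median 5.32). All 6 vehicle libraries lay above the lean median while the ranges overlapped, and the lowest and the highest of the 18 libraries were both TN-783 libraries (replicates 1 and 5). Vehicle minus lean was 0.45 (SE 0.300, edgeR adjusted p = 0.570), TN-783 minus vehicle -0.30 (SE 0.299, adjusted p = 1.00) and TN-783 minus lean 0.16 (SE 0.305, adjusted p = 0.889). Without TN-783 replicate 5 the last value was -0.06.

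Among the acyl-CoA dehydrogenases, Acadm, which acts on medium-chain fatty acids, had the smallest standard errors of the 10 genes. It ranged from 31.5 to 40.6 CPM in lean mice (median 36.5), from 39.6 to 52.8 in vehicle mice (median 43.7) and from 33.9 to 50.7 in TN-783 mice (median 40.8). Of the lean libraries only replicate 6 reached into the vehicle range, while the TN-783 libraries covered most of both ranges. Vehicle minus lean was 0.33 (SE 0.115, edgeR adjusted p = 0.347), and 6 of 6 vehicle libraries lay above the lean median. Without lean replicate 6 the adjusted p was 0.0786, the lowest that any member reached under any alternative, and that fit called 346 of all genes instead of 1. TN-783 minus vehicle was -0.15 (SE 0.115, adjusted p = 1.00) and TN-783 minus lean 0.18 (SE 0.115, adjusted p = 0.637).

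Acadl, the long-chain acyl-CoA dehydrogenase, ranged from 27.5 to 52.6 CPM in lean mice (median 39.5), from 40.3 to 57.4 in vehicle mice (median 49.6) and from 34.9 to 68.0 in TN-783 mice (median 41.0). Lean replicate 6 was the highest lean library and TN-783 replicate 4 the highest of all, with the other TN-783 libraries between 34.9 and 41.8. All 6 vehicle libraries were above the lean median. Vehicle minus lean was 0.33 (SE 0.161, edgeR adjusted p = 0.459), TN-783 minus vehicle -0.17 (SE 0.160, adjusted p = 1.00) and TN-783 minus lean 0.17 (SE 0.161, adjusted p = 0.741). Leaving out TN-783 replicate 4 gave 0.01 for the last comparison and -0.32 for TN-783 minus vehicle.

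The subunits of the trifunctional protein, whose genes share the promoter region printed above, showed no detectable correlation over the libraries. Hadha, which carries the hydratase and the long-chain hydroxyacyl-CoA dehydrogenase, ranged from 31.5 to 48.9 CPM in lean mice (median 42.7), from 34.7 to 47.0 in vehicle mice (median 41.8) and from 30.2 to 46.4 in TN-783 mice (median 40.3). The 3 ranges nearly coincided, and the differences were -0.01, -0.07 and -0.07 for vehicle minus lean, TN-783 minus vehicle and TN-783 minus lean (SE 0.121 to 0.123, edgeR adjusted p = 0.991, 1.00 and 0.873). Garem2, a gene antisense to Hadha in the annotation, had 329 counts over all libraries, and the sources used here do not say whether counting was by strand.

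Hadhb, which carries the thiolase of the complex, ranged from 51.9 to 81.7 CPM in lean mice (median 54.9), from 55.2 to 78.3 in vehicle mice (median 74.0) and from 57.4 to 105.2 in TN-783 mice (median 69.5). All but 1 of the lean libraries were between 51.9 and 57.7 CPM, and lean replicate 6 was at 81.7, above every vehicle library. Vehicle minus lean was 0.27 (SE 0.142, edgeR adjusted p = 0.482; 0.17 with RNA integrity as a covariate) and TN-783 minus vehicle 0.06 (SE 0.141, adjusted p = 1.00). TN-783 minus lean was 0.33 (SE 0.141, edgeR adjusted p = 0.611), without lean replicate 6 it was 0.43 (adjusted p = 0.0957), and without TN-783 replicate 4 it was 0.20 (adjusted p = 0.877). Over the 18 libraries the log2 CPM of Hadha and Hadhb had a Pearson correlation of -0.166 (two-sided permutation test, 100000 resamples, p = 0.511, adjusted over 3 pairs 0.511) and a Spearman correlation of -0.300 (permutation p = 0.224). Without the 2 libraries farthest from the median of Hadha the Pearson value was -0.330, and within groups it was -0.426 (lean), 0.0185 (vehicle) and 0.0606 (TN-783).

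Expressed within each library, the log2 ratio of Hadhb to Hadha counts was 0.51 ± 0.38 in lean mice, 0.78 ± 0.23 with vehicle and 0.89 ± 0.38 with TN-783 (SD, n = 6). This ratio and those that follow were chosen after the values were seen, and they need no scaling between libraries. The ratio differed by 0.27 between vehicle and lean (two-sided exact permutation test, p = 0.171, adjusted over 9 such tests 0.256), by 0.11 between TN-783 and vehicle (exact p = 0.556) and by 0.38 between TN-783 and lean (exact p = 0.113, adjusted 0.203). The ratio of Cpt1a to Cpt1c was -0.76 ± 0.35 in lean mice, -0.26 ± 0.46 with vehicle and -0.41 ± 0.27 with TN-783. It was 0.50 higher in vehicle than in lean mice (exact permutation p = 0.0649, adjusted 0.195) and 0.35 higher in TN-783 than in lean mice (exact p = 0.0866, adjusted 0.195), and TN-783 minus vehicle was -0.15 (exact p = 0.545).

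**Figure D3:**
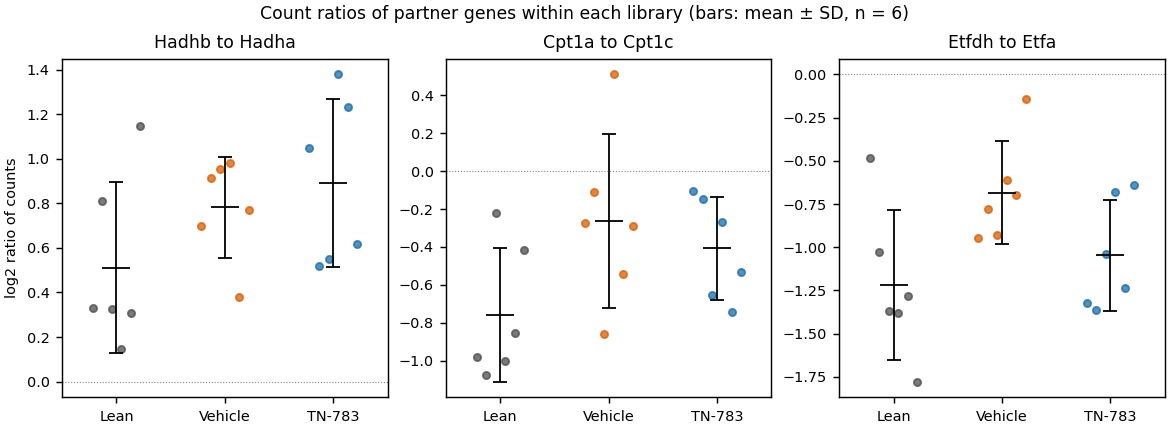
Log2 ratios of counts for 3 pairs of genes in every library, by group, with the mean ± SD of 6 as bars and a dotted line where both counts are equal. The mean ratio of Hadhb to Hadha is 0.51 in lean and 0.89 in TN-783 mice, that of Cpt1a to Cpt1c -0.76 in lean and -0.26 in vehicle mice, and that of Etfdh to Etfa -1.22 in lean and -0.68 in vehicle mice, with groups that overlap in each panel.

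Of the 3 pairs examined, the electron-transfer genes were the one whose correlation passed the test. Etfa, the alpha subunit of the electron transfer flavoprotein, ranged from 11.2 to 25.0 CPM in lean mice (median 15.7), from 12.9 to 24.2 in vehicle mice (median 18.2) and from 14.0 to 25.9 in TN-783 mice (median 18.0). The groups covered nearly the same range, lean replicate 6 was the highest lean library and TN-783 replicate 4 the highest of all. The differences were 0.19 for vehicle minus lean, 0.01 for TN-783 minus vehicle and 0.20 for TN-783 minus lean (SE 0.191 to 0.193, edgeR adjusted p = 0.725, 1.00 and 0.739). With RNA integrity as a covariate the first of these was 0.033 (adjusted p = 0.986), and leaving out single libraries moved it between 0.10 (without vehicle replicate 3) and 0.33 (without lean replicate 6).

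Etfdh, the iron-sulfur flavoprotein that hands these electrons to ubiquinone, had the largest difference of the tested genes. It ranged from 4.33 to 11.5 CPM in lean mice (median 6.52), from 8.46 to 18.1 in vehicle mice (median 10.8) and from 5.95 to 16.2 in TN-783 mice (median 8.42). Only lean replicate 1 reached into the vehicle range, the other lean libraries being at or below 7.29 CPM, and the counts behind these levels were 10 to 43 per library. Vehicle minus lean was 0.71 (SE 0.261, edgeR adjusted p = 0.358), with 6 of 6 vehicle libraries above the lean median. Leaving out single libraries moved this value between 0.54 and 0.91. TN-783 minus vehicle was -0.31 (SE 0.254, adjusted p = 1.00) and TN-783 minus lean 0.41 (SE 0.265, adjusted p = 0.639), which places the TN-783 mean of 9.40 CPM between the lean mean of 7.05 and the vehicle mean of 11.6. The antisense gene 4930579G24Rik had 41 counts over the 18 libraries, against 393 for Etfdh.

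Etfa and Etfdh had a Pearson correlation of 0.661 over the 18 libraries (permutation p = 0.00279, adjusted over 3 pairs 0.00837) and a Spearman correlation of 0.655 (permutation p = 0.00388, adjusted 0.0116). After group means were removed the Pearson value was 0.673, and within groups it was 0.466 (lean), 0.738 (vehicle) and 0.877 (TN-783). Without the 2 libraries farthest from the median of Etfa it was 0.469 (permutation p adjusted 0.202), so the relation rests in part on those libraries. The points share library depth and scaling, and TN-783 replicate 4 is high and lean replicate 4 low for both genes. The log2 ratio of Etfdh to Etfa was -1.22 ± 0.43 in lean mice, -0.68 ± 0.30 with vehicle and -1.05 ± 0.32 with TN-783. It was 0.54 higher in vehicle than in lean mice (exact permutation p = 0.0346, adjusted 0.195). Leaving out each of the 18 libraries in turn gave differences of 0.43 to 0.68 (exact permutation, adjusted p = 0.0195 to 0.312). The value of 0.68, with the adjusted p of 0.0195, came without lean replicate 1. That library had the highest ratio of the lean group (-0.49), and no other omission made the result stronger in this way. TN-783 minus vehicle was -0.36 (exact p = 0.0693, adjusted 0.195) and TN-783 minus lean 0.17 (exact p = 0.470).

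**Figure D4:**
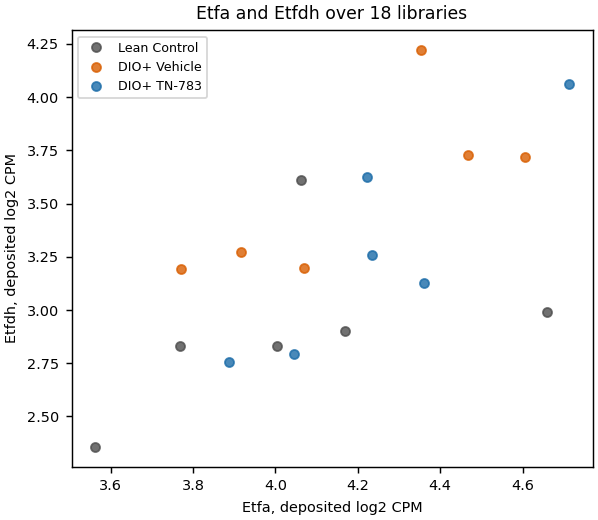
Etfa (horizontal axis) against Etfdh (vertical axis) in deposited log2 CPM, 1 point per library, coloured by group. Libraries high for one gene tend to be high for the other (Pearson 0.661 over 18 libraries), with the lean points mostly in the lower part of the plot.

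Pdk4 encodes a kinase that switches off the pyruvate dehydrogenase complex and so spares glucose when fatty acids are burned, and its transcription is known to answer to fasting, to peroxisome proliferator-activated receptors and to glucocorticoids. It had 31 counts over the 6 lean libraries, 46 over the vehicle libraries and 39 over the TN-783 libraries, and 0 to 15 in a single library. Its levels were 0 to 3.46 CPM in lean mice (median 1.92), 1.70 to 5.46 in vehicle mice (median 4.20) and 1.31 to 3.78 in TN-783 mice (median 2.85). The count of 0 was in lean replicate 6, where 3 counts, the limit a count of 0 allows, would be 1.56 CPM. In vehicle mice 4 libraries lay at 4.17 to 5.46 CPM and replicates 4 and 5 at 1.78 and 1.70, within the lean range. All 6 TN-783 libraries lay below the vehicle median, and the groups overlapped.

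Without the filter, Pdk4 gave 0.84 for vehicle minus lean (SE 0.415, edgeR adjusted p = 0.600), -0.36 for TN-783 minus vehicle (SE 0.401, adjusted p = 0.849) and 0.48 for TN-783 minus lean (SE 0.425, adjusted p = 0.605). None of these passed, and the standard errors are the widest of the 10 genes. Pdk4 and Cpt1a, both known to be induced when cells turn to fatty acids, had a Pearson correlation of 0.396 (permutation p = 0.102, adjusted 0.153) and a Spearman correlation of 0.381 (permutation p = 0.119), which was 0.0451 (Pearson) without the 2 libraries farthest from the median of Pdk4. Pdk2, the related kinase with the broadest expression in tissues, averaged 21.3 ± 4.67 CPM in lean against 21.2 ± 3.24 in vehicle mice (SD, n = 6; difference -0.02, SE 0.158, edgeR adjusted p = 0.980). Of 12 genes of the pyruvate dehydrogenase complex and its regulators, Pdk2 among them and all tested, 0 were called and 8 were higher in vehicle than in lean mice, with a median of 0.04.

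Sgk1, Fkbp5 and Tsc22d3, which glucocorticoids are known to induce as they do Pdk4, are given beside it. Sgk1 rose from 26.2 ± 13.3 CPM in lean to 85.8 ± 14.6 in vehicle mice (log2 difference 1.75, SE 0.264, edgeR adjusted p = 0.0315). This call was lost under a filter of 1 CPM or more in 6 libraries, with only the 2 groups in the fit, and without vehicle replicates 2 and 4. It was also lost without any 1 of lean replicates 2 and 3, vehicle replicates 1, 2, 4 and 6, and TN-783 replicates 5 and 6, where 0 genes were called. For Fkbp5 the difference was 0.84 (SE 0.226, adjusted p = 0.236) and for Tsc22d3 it was 0.76 (SE 0.167, adjusted p = 0.195). All 12 tested genes of the glucocorticoid-response list were above 0, against 51.1% of all genes, with 1 called (Sgk1). At an unadjusted p under 0.05 (edgeR) 9 of them were higher, against 5.32% of all genes. The list median was 0.52, against 0.33 for the tested oxidation genes and 0.01 over all genes. For TN-783 minus lean all 12 were above 0 as well, with 0 called and 5 higher at the unadjusted level (3.81% of all genes). This list was chosen with earlier results of these data known, and a link to Pdk4 was not tested.

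Beyond the 10 genes, differences in the rest of the pathway did not reach the threshold either. Of 14 other mitochondrial beta-oxidation enzymes 13 were tested, 0 were called, and 12 were higher in vehicle than in lean mice, with a median of 0.27 (-0.01 for TN-783 minus vehicle, 6 higher). Acaa2, the mitochondrial thiolase, differed by 0.31 (SE 0.161, edgeR adjusted p = 0.480), Hadh, the short-chain hydroxyacyl-CoA dehydrogenase, by 0.27 (SE 0.220, adjusted p = 0.641), and Acadvl, the very-long-chain dehydrogenase, by 0.17 (SE 0.151, adjusted p = 0.683). Etfb, the partner of Etfa in the flavoprotein, averaged 47.0 ± 5.28 CPM in lean against 50.3 ± 5.95 in vehicle mice (0.10, SE 0.107, adjusted p = 0.729).

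Of 19 genes of fatty acid uptake, activation and carnitine handling 16 were tested, 0 were called and 12 were higher in vehicle mice (median 0.12). Slc25a20, the carnitine-acylcarnitine carrier between the steps of Cpt1a and Cpt2, differed by 0.04 between vehicle and lean mice (SE 0.220, edgeR adjusted p = 0.959). It was at 9.29 ± 2.60 CPM in vehicle and 7.17 ± 1.51 in TN-783 mice (-0.36, SE 0.229, adjusted p = 1.00), with 0 of 6 TN-783 libraries above the vehicle median. All 11 tested of 13 peroxisomal genes were higher in vehicle than in lean mice, with 0 called and a median of 0.15.

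Of the 4 ketone body genes 0 were called and 2 were higher in vehicle mice. The regulators were mixed, with 9 of 15 tested genes higher, 0 called and a median of 0.05. Ppara, the nuclear receptor that drives oxidation genes in liver, differed by 0.04 (SE 0.265, edgeR adjusted p = 0.966) at 2.68 to 7.36 CPM in lean mice. Ppargc1a, a coactivator gene, had a lean mean of 45.7 ± 5.92 CPM and a vehicle mean of 38.4 ± 4.19, opposite in direction to most enzymes (-0.26, SE 0.118, edgeR adjusted p = 0.444). Each of the 6 vehicle libraries was below the lean median for it. Among 6 tested of 11 other targets of these receptors and of fasting, 0 were called and 5 were higher, and Ucp2, a mitochondrial carrier, differed by 0.20 (SE 0.167, adjusted p = 0.653). Angptl4, a secreted target of these receptors, was not tested, with 48, 34 and 33 counts over the lean, vehicle and TN-783 groups.

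**Figure D5:**
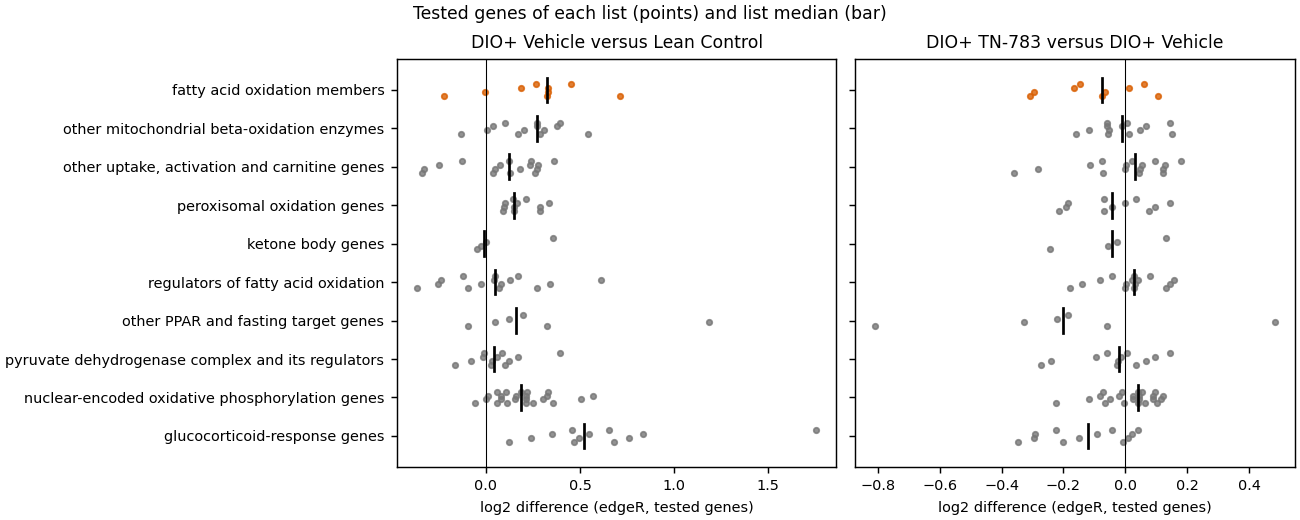
Log2 differences of the tested genes of each list for vehicle minus lean (left) and TN-783 minus vehicle (right), 1 point per gene, with the list median as a black bar and the 9 tested oxidation genes in orange. In the left panel the medians are 0.33 for the 9 genes, 0.27 for the other mitochondrial enzymes, 0.18 for oxidative phosphorylation and 0.52 for glucocorticoid-response genes. In the right panel the median of the 9 genes is -0.08.

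The levels refer to whole tissue, where more cells of a type and more RNA per cell cannot be told apart. Cell type markers were summed per library, and 0 genes of the 5 lists that follow were called in any comparison (edgeR). The summed level of 6 endothelial and mural markers was 260 to 365 CPM in lean mice, 333 to 454 with vehicle and 294 to 451 with TN-783. For 8 astrocyte markers it was 4522 to 5955, 4787 to 6396 and 4979 to 6806 CPM, and for 6 oligodendrocyte markers 2407 to 6197, 3049 to 7380 and 3500 to 6831 CPM. Blood markers summed to 357 to 707, 320 to 2256 and 1182 to 2144 CPM. Neuronal markers (6 genes) summed to 3176 to 3696, 3035 to 3906 and 2933 to 3658 CPM, and 0 markers of these 5 lists were at 0 in any group. For vehicle minus lean, 5 of 6 endothelial and mural markers were above 0 (median 0.33), 5 of 6 oligodendrocyte (0.30) and 6 of 8 astrocyte markers (0.21). All 4 tested blood markers were above 0 (median 1.31) and 2 of 6 neuronal markers (median -0.10), against 51.1% of all genes. Higher at an unadjusted p under 0.05 (edgeR) were 4 blood, 4 endothelial and mural, 2 astrocyte, 1 oligodendrocyte and 0 neuronal markers. Over all genes that share was 5.32%. For TN-783 minus lean these counts were 4, 1, 4, 2 and 0 (3.81% of all genes), with 1 endothelial and mural marker lower. The 10 hypothalamic neuropeptide markers, a separate list, also lay mostly below 0 for vehicle minus lean, with 7 below and 3 above (median -0.26). At an unadjusted p under 0.05, 4 of them were lower and 1 higher (edgeR). None was called, and the lowest adjusted p among them was 0.0879 (edgeR). Of 23 tested genes of nuclear-encoded oxidative phosphorylation 21 were higher in vehicle than in lean mice, 0 called, with a median of 0.18. The part of these in the levels of the oxidation genes was not tested.

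The mean standardized profile of the 9 tested genes over the 18 libraries was compared with that of every other tested gene. The 5 closest genes were Itprid2, Kif5b, Trpm3, Sparcl1 and Hnrnpf, with root mean square differences of 0.424, 0.430, 0.461, 0.499 and 0.504 SD, against a median of 1.41 over all genes. Kif5b was at 773 CPM in lean mice, 969 with vehicle and 946 with TN-783, and Itprid2 at 16.1, 23.1 and 22.8 CPM. The members themselves ranged in distance from their own mean profile from 0.614 for Hadhb to 1.47 for Cpt1c, with Acadl, Etfdh, Etfa and Acadm at 0.770 to 0.805 and Cpt1a, Cpt2 and Hadha at 1.05 to 1.19. The mean profile includes each of these genes.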

How the data were processed

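Hypothalamus RNA from 18 mice was made into 3' mRNA libraries that carry unique molecular identifiers (18 PCR cycles), as the labels' protocols state. Without giving roles, the submitters' processing notes list the GRCm39 build, Salmon 1.10.1, STAR 2.7.9a, R 4.5.1 and edgeR 4.6.2. The authors deposited estimated counts, log2 CPM values, total signal per library (the sum of its counts) and the scaling ratio per library, and the RNA integrity score is as deposited. Estimated counts, 12.0% of them not whole, were rounded, in place of the whole counts the design assumed. Genes kept by filterByExpr (minimum count 10) were fitted in edgeR 4.0.16 (R 4.3.3) over all 18 libraries, with TMM scaling, the robust quasi-likelihood test, 15 residual degrees of freedom and a threshold of 0.05. The SE is the log2 difference divided by the square root of F. Correlations used deposited log2 CPM. Counting floors cover counting error only. DESeq2 1.42.0 and limma 3.58.1 were among the alternatives. Tests were tried on simulated data, and the outcome is not reported here.

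The 10 genes and all lists were chosen with earlier results of these data known. Named genes are the members, 12 genes of the pathway lists (some not reported here), any list gene that was called, Sgk1, Fkbp5 and Tsc22d3, and the 5 genes of closest profile. No pairing by replicate number was detected (3 of 18 same-numbered pairs correlated above 0.1), which 6 libraries per group cannot exclude. Of the library pairs, 0 were identical.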

Additional observations from a re-analysis of the deposited data

Results flagged for a closer look

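Of 30 groups of 6 libraries (10 genes in 3 groups), 2 held a library far from the rest, where chance flags about 1 in 20 groups. Acadl in TN-783 replicate 4 was at 68.0 CPM against 34.9 to 41.8 CPM in the other TN-783 libraries, a gap of 0.791 of the whole range. Hadhb in lean replicate 6 was at 81.7 CPM against 51.9 to 57.7 CPM in the other lean libraries, a gap of 0.806 of the range. TN-783 replicate 4 was also the highest of the 18 libraries for Hadhb and Etfa, and lean replicate 6 was the highest lean library for Acadm, Acadl, Cpt2 and Etfa and the lowest for Cpt1a, Cpt1c and Pdk4.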

How the results depend on the processing

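Under 28 alternative fits per comparison, 0 members were called in the 827 values with an adjusted p. For 7 others DESeq2 gave none (Cpt2, Etfdh and Pdk4 for vehicle and for TN-783 minus lean, and Etfa for the latter). The lowest adjusted p was 0.0786 (edgeR, Acadm for vehicle minus lean without lean replicate 6). The median difference of the tested members stayed between 0.24 and 0.36 for vehicle minus lean, between -0.15 and -0.03 for TN-783 minus vehicle and between 0.12 and 0.26 for TN-783 minus lean. The value 0.24 came with RNA integrity as a covariate and also without vehicle replicates 2 and 4. Leaving out single libraries gave 0 to 0 called members in each comparison. Over all genes this gave 0 to 346 calls for vehicle minus lean, 0 to 0 for TN-783 minus vehicle and 0 to 5 for TN-783 minus lean. Median differences were then 0.25 to 0.36, -0.15 to -0.03 and 0.12 to 0.26. The 346 calls came without lean replicate 6. Where the count was 0, the call of Sgk1 was lost.

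Over all genes, calls for vehicle minus lean numbered 22 with DESeq2, 126 with no filter, 0 with at least 1 CPM in 6 libraries, 0 with only the 2 groups compared and 0 without vehicle replicates 2 and 4. For TN-783 minus vehicle no filter gave 6. For TN-783 minus lean there were 10 with DESeq2, 27 with no filter, 5 with only the 2 groups, 2 with RNA integrity as a covariate and 1 with the replicate block. In the fit with the replicate block, 1 gene was called for vehicle minus lean, 0 for TN-783 minus vehicle, and 0 members in any comparison. Same-numbered libraries correlated between -0.399 and 0.385, 3 of 18 pairs above 0.1, and 2 of 18 libraries correlated best with their own number. No pairing was thus detected, though so few libraries per group cannot exclude one.

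The sign turned for few values. Hadha for vehicle minus lean became 0.000351 with DESeq2, 0.011 with upper-quartile factors, 0.0058 with the replicate block and 0.047 without vehicle replicates 2 and 4. The last setting also turned Cpt1a (0.10), Etfa (-0.015) and the Cpt1a to Cpt1c ratio (0.084) for TN-783 minus vehicle. Leaving out single libraries turned Hadha (-0.089 to 0.047) for vehicle minus lean. For TN-783 minus vehicle it turned Cpt1a (-0.15 to 0.012), Hadha (-0.11 to 0.0015), Hadhb (-0.063 to 0.13), Etfa (-0.10 to 0.10) and the Cpt1a to Cpt1c ratio (-0.27 to 0.0080). For TN-783 minus lean it turned Cpt2 (-0.062 to 0.31). The cause was not tested.

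The Pearson correlation of Etfa with Etfdh was 0.469 without the 2 farthest libraries (permutation p adjusted 0.202) and 0.572 to 0.777 when single libraries were left out, with an adjusted permutation p of 0.0517 without lean replicate 4. For Pdk4 with Cpt1a the range was 0.197 to 0.530 (adjusted permutation p = 0.0367 without vehicle replicate 4), and for Hadha with Hadhb -0.297 to -0.0690. Depth limits Pdk4, Cpt2 and Etfdh most, with 0 to 15, 4 to 22 and 10 to 43 counts per library. Because lean mice ate chow and were not dosed, diet and dosing cannot be told apart.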
